A study of Mus musculus with 6 samples.

Results

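The 32 genes described here are NADPH oxidase subunits, antioxidant enzymes and genes of the NRF2 pathway, which were taken by gene name from the 46072 genes of the 6 library tables. NADPH oxidases pass electrons from NADPH to oxygen and so release superoxide, which superoxide dismutases turn into hydrogen peroxide. Catalase, glutathione peroxidases and peroxiredoxins then remove the peroxide, and thioredoxin and glutathione are kept reduced with electrons from NADPH. NRF2, the transcription factor encoded by Nfe2l2, is held back by KEAP1 and drives many of these enzymes through the antioxidant response element (ARE), a short DNA motif. Angiotensin II (AngII) is known as an activator of NADPH oxidases in heart and vessel wall.

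RNA immunoprecipitation sequencing (RIP-seq) was applied to the left ventricle of male mice aged 10 weeks. Groups of 2 mice each were studied as Sham, AngII 4 h and AngII 24 h. The AngII mice were infused from a minipump under the skin at a stated rate of 1 mg/kg/min, of which the unit may be an error. The Sham mice received saline, although the label of the Sham libraries reads Untreated. EZH2 is the histone methyltransferase of the Polycomb repressive complex, and lysate of each group was precipitated with anti-EZH2 antibody or, as the background control, with normal IgG. Each group and antibody gave 1 library made from 2 RIP products mixed together, so the 6 libraries hold no replicates of a treatment. No genetic change is given for any mouse. The strain label is C57BL/6 for 4 libraries but C57BL/7 for AngII 4 h anti-EZH2 and C57BL/8 for AngII 24 h anti-EZH2. An IgG library and an anti-EZH2 library of the same group thus carry different strain labels at 4 and at 24 h. The rising number in these labels may be an error of entry. The labels do not say how the tissue of the mice of a group was divided between the RIP products.

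Values are FPKM (fragments scaled by transcript length and by the fragments mapped in the library) after division by a scale factor of each library, and are written as scaled FPKM. From the steps between low FPKM values, the libraries were estimated to hold between 3805900 (AngII 24 h IgG) and 7968130 (AngII 4 h anti-EZH2) fragments. Transcripts of the mitochondrial genome took 12.4 (Sham), 13.7 (4 h) and 13.9% (24 h) of the FPKM with IgG, and 12.0, 6.73 and 31.3% with anti-EZH2 in that order, so that AngII 24 h anti-EZH2 stood apart by its high share.

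The Sham libraries also stood apart, by markers of atrial muscle. Myl7, the atrial myosin light chain, was at 14.3 (IgG) and 14.8 (anti-EZH2) scaled FPKM in Sham, at 0.412 and 0.294 at AngII 4 h and at 0 in both AngII 24 h libraries. The 4 atrial markers summed to 43.9 and 36.0 in the Sham libraries, 9.80 and 10.1 at 4 h and 4.71 and 6.84 at 24 h, with Nppa as the most abundant and Sln at 0 throughout. Each difference from Sham given below therefore rests on libraries that differed in this respect, and the part of atrial tissue in it was not tested. In all libraries the 8 cardiomyocyte markers summed to between 6582 and 8059 scaled FPKM, with Myl2, the ventricular light chain, as the most abundant. This sum does not separate ventricular from atrial muscle.

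The ARE was looked for because NRF2 is known to act through it at genes of the group. RefSeq promoters (GRCm38.p6) were found for 26 of the 32 genes, and the letters TGACNNNGC were searched on both strands in the 250 bases before each of 31 starts. They were present at 6 of these starts, each of another gene, and in 10.2% of all 32851 promoters of this length. The windows of 30 bases around the 6 matches are shown on the strand of the gene, with the match in capitals. At Nfe2l2 the capitals read TGACNNNGC and at the other genes its reverse complement, GCNNNGTCA.

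Nfe2l2, chr2:75704884-75704913 (minus strand): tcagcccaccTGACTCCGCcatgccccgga
Gclm, chr3:122245413-122245442 (plus strand): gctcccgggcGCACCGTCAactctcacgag
Prdx1, chr4:116685456-116685485 (plus strand): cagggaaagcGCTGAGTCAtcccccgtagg
Ucp2, chr7:100493282-100493311 (plus strand): ccctggctccGCCTCGTCAcgccacgcccc
Txnrd1, chr10:82859104-82859133 (plus strand): ctggatttttGCTTTGTCAttctgacacgg
Sod1, chr16:90220696-90220725 (plus strand): gccaaggtggGCGTGGTCAgactcaggcct

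These matches are a description of the letters and not of NRF2 binding, which was not measured. The 6 genes did not vary to the same extent over the 6 libraries, which differ by antibody as well as by group. Gclm, the modifier subunit of the enzyme that makes the glutathione precursor, varied the most among them, with a coefficient of variation of 72.2% over the 6 libraries. Sod1, the cytosolic superoxide dismutase, varied the least, at 12.2%.

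Levels spanned a wide range between the roles. Gpx4, which reduces lipid hydroperoxides in membranes, was the most abundant member at a mean of 679 scaled FPKM, followed by Prdx5 at 49.7 and Sod1 at 48.5. The least abundant were Slc7a11, Ncf4 and Nox4 at 0.170, 0.327 and 0.379. A mean of at least 1 FPKM was reached by 25 of the 32 members and by 8636 genes in all, and only these were compared between antibodies or groups. The 7 below it were Nox4, Cybb, Ncf1, Ncf4, Hmox1, Gclc and Slc7a11.

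**Figure D1:**
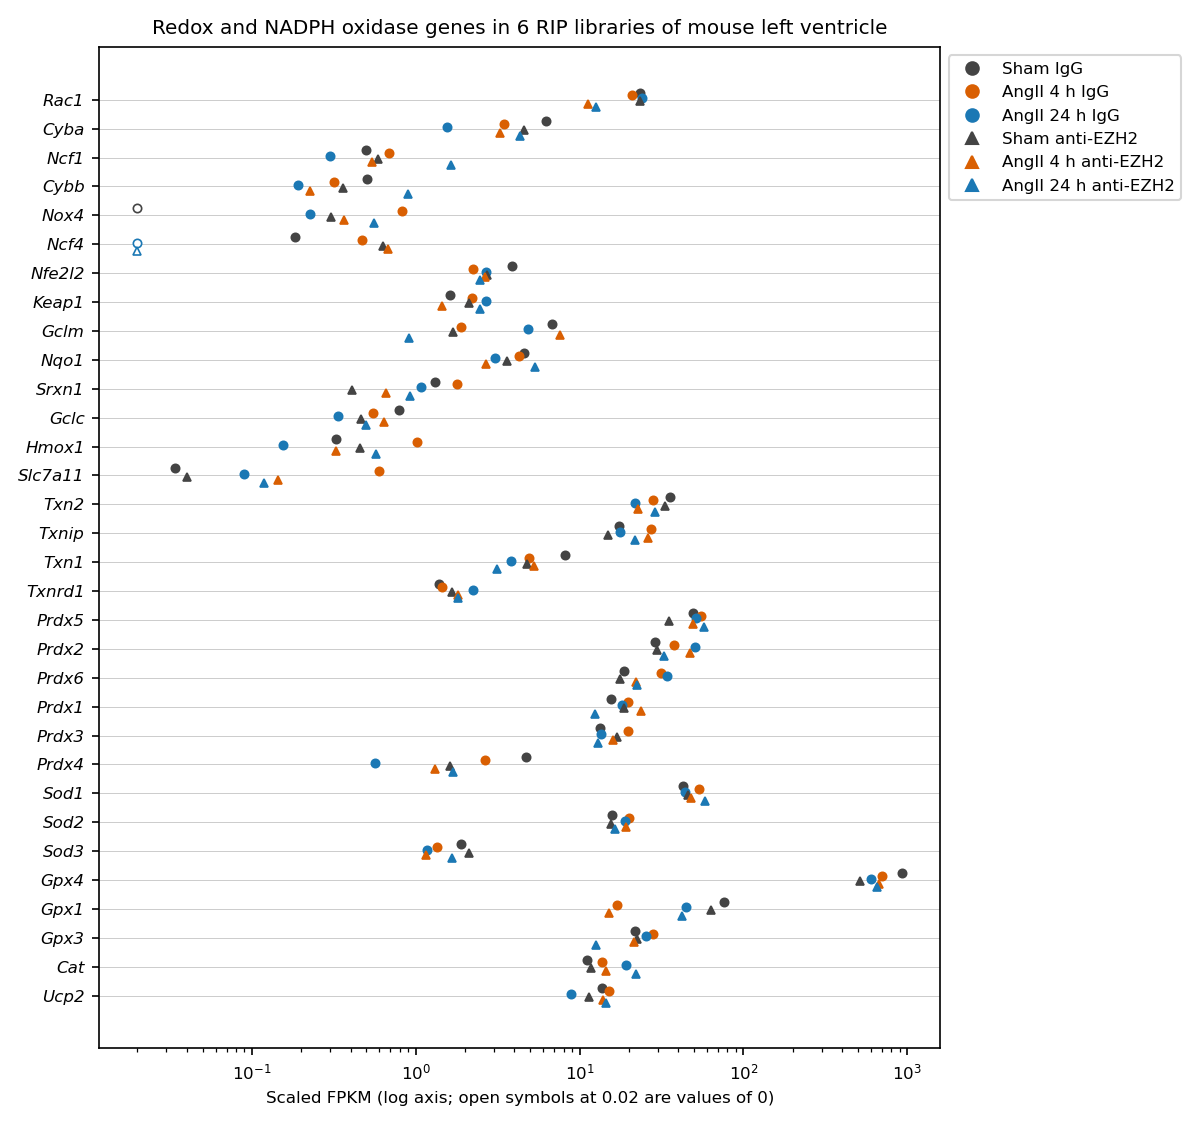
Scaled FPKM (log axis) of the 32 genes, ordered by role, in each of the 6 libraries, with circles for IgG, triangles for anti-EZH2 and open symbols at the left edge for values of 0. Gpx4 lies above 500 in every library, while Nox4, Cybb, Ncf4, Gclc and Slc7a11 stay below 1.

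Among the oxidase subunits, the catalytic ones were barely detected. Nox4, a constitutively active oxidase of cardiomyocytes, was at 0, 0.820 and 0.227 scaled FPKM with IgG and at 0.304, 0.364 and 0.557 with anti-EZH2, the groups being given here and below in the order Sham, 4 h and 24 h. The highest of these values stands for only about 19.0 fragments and the others for about 11.9 or fewer. The order of the groups differed between the antibodies and, with 1 library of each kind, was not tested. Cybb, the catalytic subunit of the phagocyte oxidase, was at 0.507, 0.316 and 0.191 with IgG and at 0.361, 0.225 and 0.903 with anti-EZH2. Ncf1, the organiser of that oxidase, was at 1.64 in AngII 24 h anti-EZH2 and at 0.301 to 0.690 in the others. The highest values of Cybb and Ncf1 stand for only about 15.3 and 16.4 fragments, with intervals down to 0. In the table of the whole series Cybb was highest in Sham IgG instead, at 0.490, while Ncf1 was again highest in AngII 24 h anti-EZH2, at 0.939. Ncf4, another cytosolic subunit, was listed at 0 in both AngII 24 h libraries and reached 0.675 at most, about 7.48 fragments.

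Cyba, the membrane partner shared by the NOX2 and NOX4 oxidases, was higher than the catalytic subunits. It stood at 6.22, 3.45 and 1.56 scaled FPKM with IgG and at 4.60, 3.28 and 4.32 with anti-EZH2, highest in the Sham library of each antibody. Rac1, the small GTPase that activates the phagocyte oxidase and has many other tasks, was the most abundant of the 6 subunits. Its values were 23.3, 21.0 and 24.0 with IgG and 23.3, 11.3 and 12.6 with anti-EZH2, so that the AngII anti-EZH2 libraries lay below the other 4. With libraries scaled to an equal sum of FPKM, the 24 h difference from Sham with anti-EZH2 was only -0.03 on the log2 scale, in place of -0.86. The 10 leukocyte markers, in whose cells this oxidase is abundant, summed to 43.9, 26.5 and 29.9 with IgG and to 47.1, 23.1 and 29.4 with anti-EZH2, with Lyz2 the most abundant and Cd68 at 0 in AngII 24 h anti-EZH2. Lyz2, C1qa and C1qb made up most of each sum, and others differed from it, such as Fcgr3 at 1.05, 1.67 and 2.37 with IgG. Their part in the values of Cyba and Cybb was not tested, and in such bulk tissue fewer cells of a type and less RNA per cell cannot be told apart.

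The regulators of the NRF2 pathway were low and moved within 2-fold in the library tables. Nfe2l2 was at 3.85, 2.25 and 2.67 scaled FPKM with IgG and at 2.72, 2.65 and 2.46 with anti-EZH2. Keap1 was at 1.62, 2.22 and 2.67 with IgG and at 2.12, 1.45 and 2.48 with anti-EZH2. The highest library was 1.71-fold of the lowest for Nfe2l2 and 1.84-fold for Keap1, and neither was past 1.5-fold from Sham in the same direction with both antibodies. The table of the whole series gave wider differences at 24 h, a log2 difference of -1.04 and -0.65 for Nfe2l2 and of 0.98 and 0.57 for Keap1.

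The enzymes known as NRF2 targets did not form a common pattern. Nqo1, a quinone reductase and a classical target, was at 4.61, 4.26 and 3.05 with IgG and at 3.63, 2.70 and 5.33 with anti-EZH2. Srxn1, which repairs overoxidised peroxiredoxins, was at 1.32, 1.78 and 1.07 with IgG and lower in each anti-EZH2 library, at 0.408, 0.656 and 0.919. Gclc, the catalytic partner of Gclm, stayed between 0.337 and 0.787 scaled FPKM, and Hmox1, which breaks down heme, between 0.154 and 1.02, the highest being AngII 4 h IgG at about 8.72 fragments. Slc7a11, which imports cystine for glutathione synthesis, was the lowest member and had its highest values at AngII 4 h, at 0.594 (about 33.3 fragments) with IgG and 0.145 (about 11.4) with anti-EZH2. The 4 other libraries held about 4.00 Slc7a11 fragments or fewer, but the mean was under the minimum for a comparison.

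Gclm alternated between libraries. It was at 6.76, 1.90 and 4.86 scaled FPKM with IgG and at 1.68, 7.61 and 0.908 with anti-EZH2. The deposited interval of Sham IgG, 1.78 to 10.4, overlapped that of AngII 4 h IgG, 0.429 to 3.53. That of Sham anti-EZH2, 0 to 3.85, overlapped that of AngII 4 h anti-EZH2, 2.42 to 8.96. The exons of Gclm overlap a processed pseudogene on the same strand, Gm6061, which stood at 1.65 to 4.71 scaled FPKM, and Gm17494 on the opposite strand, so reads assigned to Gclm are uncertain.

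Of the thioredoxin system, Txn2 and Txnip were the most abundant. Txn2, the mitochondrial thioredoxin, was at 35.9, 28.0 and 21.9 with IgG and at 33.5, 22.9 and 29.0 with anti-EZH2, and Txn1, the cytosolic form, at 8.15, 4.89 and 3.83 and at 4.77, 5.24 and 3.14. Txnrd1, the cytosolic thioredoxin reductase, was the lowest of the 4 and ranged from 1.38 to 2.23. Its level is uncertain, since the upper bounds of its deposited intervals ran from 230 in AngII 4 h anti-EZH2 to 535 in AngII 24 h anti-EZH2. Txnip, which binds and inhibits thioredoxin, was at 17.4, 27.4 and 17.7 with IgG and at 14.9, 26.2 and 21.8 with anti-EZH2, and the 4 h library was the highest of each antibody.

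The 6 peroxiredoxins, which reduce peroxides with electrons from thioredoxin in most cases, were led by Prdx5 (mitochondria and peroxisomes) at 35.3 to 57.7 and Prdx2 (cytosol, and abundant in red cells) at 29.1 to 50.8 scaled FPKM. Prdx6, which uses glutathione, ranged from 17.5 to 34.1, Prdx1 of the cytosol from 12.4 to 23.8 and Prdx3 of mitochondria from 13.0 to 19.8. Prdx4, the form of the endoplasmic reticulum, was the lowest and the most variable, at 4.68, 2.64 and 0.561 with IgG and 1.62, 1.30 and 1.69 with anti-EZH2. Its IgG values thus spread over a wider range than its anti-EZH2 values. The lowest of them, in AngII 24 h IgG, stands for only about 2.13 fragments, with an interval of 0 to 1.58.

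Of the superoxide dismutases, Sod1 and Sod2 had the lowest coefficients of variation of all members in the library tables. Sod1 was at 42.6, 53.3 and 44.0 scaled FPKM with IgG and at 45.6, 47.7 and 58.0 with anti-EZH2. In all libraries but Sham IgG, Sod1 lay above its own deposited interval, such as 31.6 to 47.7 in AngII 4 h IgG. Its values in the table of the whole series were 12.1, 16.6 and 19.3 with IgG and 15.1, 15.4 and 22.1 with anti-EZH2, highest at 24 h. Sod2, the mitochondrial enzyme, had the lowest, 11.4%, with values from 15.5 to 20.1. In the table of the whole series it was not steady, at 12.5, 15.6 and 6.81 with IgG and at 12.7, 15.4 and 5.98 with anti-EZH2, lowest at 24 h. Sod3, the extracellular form, was at 1.89, 1.36 and 1.17 with IgG and at 2.11, 1.16 and 1.66 with anti-EZH2, highest in Sham with either antibody.

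Cat, the catalase of peroxisomes, was at 11.2, 13.8 and 19.1 with IgG and at 11.8, 14.6 and 22.1 with anti-EZH2. It had the same order, Sham below AngII 4 h below AngII 24 h, with both antibodies. Gpx1, the main cytosolic glutathione peroxidase, was at 75.7, 16.9 and 44.8 with IgG and at 63.4, 15.2 and 42.3 with anti-EZH2, lowest at 4 h. Gpx4 was at 930, 705 and 600 with IgG and at 517, 668 and 657 with anti-EZH2, with Sham the highest of the IgG libraries and the lowest of the anti-EZH2 libraries. In the table of the whole series Gpx4 was also the most abundant member but at only 50.1 to 98.8 after the same scaling, so its level depends on the table. Gpx3, the secreted plasma form, has 5 rows in the table, and its widest row ranged from 12.6 in AngII 24 h anti-EZH2 to 28.2 in AngII 4 h IgG. Level and order depended on the row, as a row of 941 bases was at 159, 156 and 356 with IgG. With anti-EZH2 that row was at 41.3, 18.6 and 93.8, also highest at 24 h. The table of the whole series had Gpx3 above Sham at 24 h with both antibodies (log2 0.82 and 0.16). Ucp2, a carrier of the inner mitochondrial membrane thought to limit superoxide formation, ranged from 8.86 in AngII 24 h IgG to 15.2 in AngII 4 h IgG.

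The first comparison asked whether transcripts of these genes were enriched by anti-EZH2 relative to normal IgG. No member passed the test in either direction. By limma with the group of mice as a block (3 pairs of libraries), 0 of the 25 members and 0 of all 8636 genes (0%) had an adjusted p under 0.05, and 494 genes (5.72%) but no member had an unadjusted p under 0.05. The 3 pairs come from different groups, so the residual of this fit is the difference in antibody effect between groups. The fit thus describes the mean over the groups, and a difference present in a single group widens its error. The median over members was a log2 difference of -0.09, beside 0.00 over all genes. Estimates lay below 0 for 16 members and above 0 for 9, where 49.6% of all genes lay below 0, and the sign turned under at least 1 other setting for 18 of the 25.

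Rac1 had the lowest p of the members, with a limma log2 difference of -0.59 ± 0.28 (SE, 3 pairs), unadjusted p = 0.103 and adjusted p = 0.867. Its value was nearly the same in the Sham pair (23.3 scaled FPKM in both) and lower with anti-EZH2 in the AngII pairs, 0.550-fold at 4 h and 0.534-fold at 24 h on the scale with 0.5 FPKM added. Adjusted limma p-values of the 25 members ran from 0.867 to 0.999. The 95% interval of every member, which is for the mean over the groups and not for a single group, included 0. For 16 of the 25 it lay within 2-fold in either direction, as for Cat (-0.42 to 0.65) and Txnip (-0.59 to 0.60), while for Gclm it ran from -3.04 to 1.77, so a large difference of Gclm was not detectable with these pairs. On simulated data of this design, limma recovered 0% of changes of 1 log2 unit, 10% of 2 and 52% of 4 among 8636 genes.

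**Figure D2:**
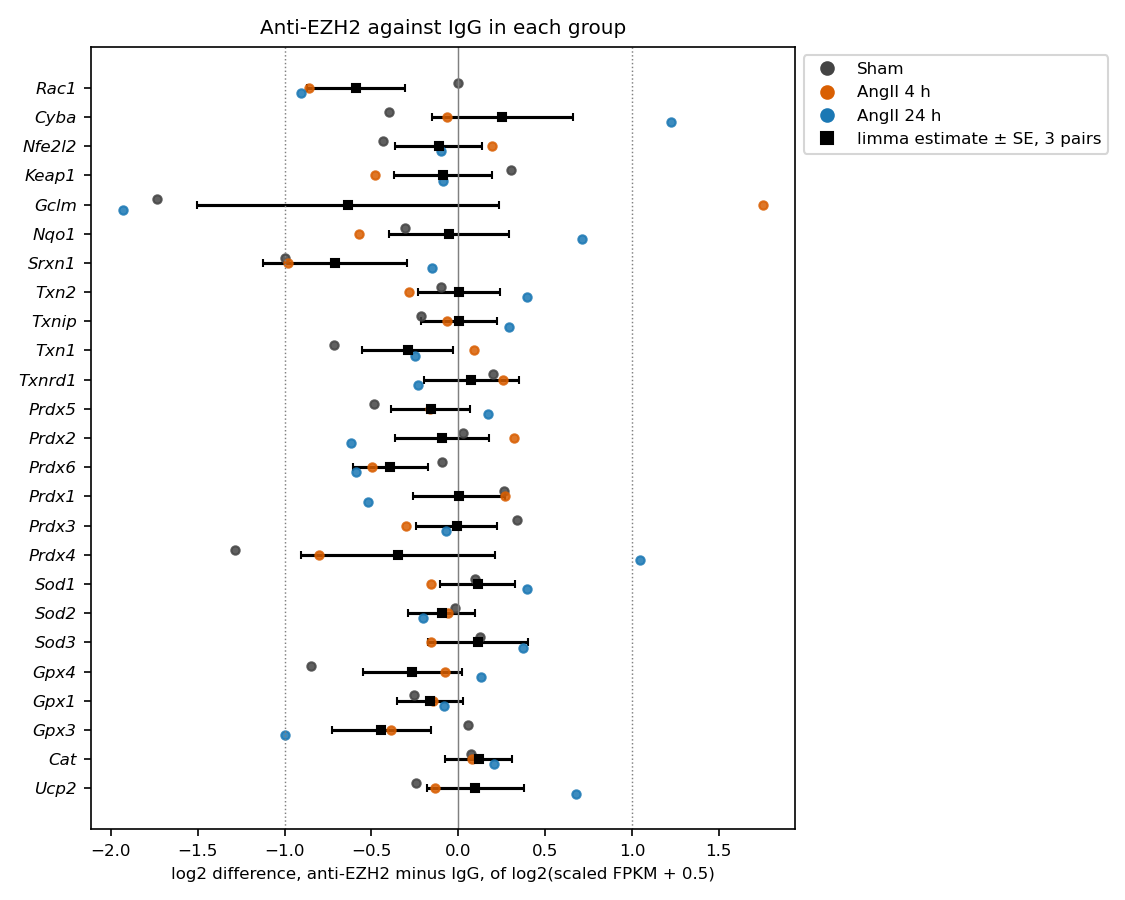
Log2 difference of anti-EZH2 minus IgG, on the scale of log2(scaled FPKM + 0.5), for the 25 members with a mean of at least 1 FPKM, with 1 point for each group and a square with its standard error for the limma estimate over 3 pairs. Dotted lines mark 2-fold, and the points of Gclm lie past it in all 3 groups, on opposite sides.

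Within single groups, where 1 library stands against 1 and no test is possible, few members lay past 2-fold. With anti-EZH2 above IgG these were 0 of 25 in Sham (14.8% of all genes), Gclm alone at AngII 4 h (11.1%), and Cyba and Prdx4 at AngII 24 h (13.1%). With IgG above anti-EZH2 they were Gclm, Prdx4 and Srxn1 in Sham (9.84%), 0 at 4 h (7.05%) and Gclm at 24 h (14.2%). Gclm was at 0.300-fold of IgG in Sham, 3.38-fold at 4 h and 0.263-fold at 24 h. Cyba was at 0.759-fold, 0.958-fold and 2.34-fold and Prdx4 at 0.410-fold, 0.575-fold and 2.07-fold, so neither was above IgG in Sham or at 4 h. Their 24 h values stand for few fragments, about 3.91 (IgG) and 8.78 (anti-EZH2) for Cyba and 2.13 and 5.21 for Prdx4. The deposited intervals of each pair overlapped. With FPKM as deposited or in the table of the whole series, 0 members were past 2-fold above IgG at 24 h, and Cyba was not in the latter table. Below IgG in all 3 groups were 5 of the 25 members (13.1% of all genes), Gpx1, Prdx6, Rac1, Sod2 and Srxn1, and above it in all 3 was 1 (13.4%), Cat, at 1.05-fold to 1.15-fold. These sets depended on the processing, since in the table of the whole series Gpx1, Prdx6 and Txn2 were below IgG in all 3 groups and 0 members above it, and with FPKM as deposited 14 were below (28.3% of all genes).

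The second comparison asked how the same transcripts differed between AngII and Sham. A member was counted when scaled FPKM + 0.5 differed by more than 1.5-fold from Sham in the same direction with both antibodies. The 2 libraries of a group are not replicates of the treatment, so this is a description with no test. Medians of the members lay near those of all genes, at a log2 difference of 0.16 (IgG) and 0.11 (anti-EZH2) at 4 h, beside 0.00 and -0.02 over all genes, and of 0.02 and 0.09 at 24 h, beside 0.00 and -0.02.

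At AngII 4 h, Txnip was the 1 member of 25 counted as higher than Sham, beside 4.79% of all genes. Its level was 1.56-fold of Sham with IgG and 1.74-fold with anti-EZH2 (log2 0.64 and 0.80). In the table of the whole series the log2 differences were 0.25 and 1.04, so Txnip was not counted there. The deposited intervals were 11.5 to 23.1 in Sham IgG and from 22.8 upward in AngII 4 h IgG, which touch, and 11.5 to 18.4 and 23.0 to 29.4 with anti-EZH2, which do not. By 24 h Txnip was at 1.02-fold of Sham with IgG and 1.45-fold with anti-EZH2. Pdk4, a kinase that is induced by fasting and glucocorticoids, was at 6.98, 44.5 and 16.2 with IgG and at 9.83, 39.4 and 12.6 with anti-EZH2, also highest at 4 h. The 6 genes listed for that response summed to 26.6, 75.0 and 38.8 with IgG and to 33.9, 70.8 and 29.5 with anti-EZH2. Pdk4 made up most of the difference at 4 h and was the 1 gene of the list counted as higher. With IgG and anti-EZH2, Fkbp5 was at 1.48-fold and 2.67-fold of Sham at 4 h and Cdkn1a at 1.48-fold and 2.17-fold. Per1 was at 2.95-fold and 1.03-fold and Tsc22d3 at 1.20-fold and 0.960-fold. Angptl4, under the minimum for a comparison, was at 1.58-fold and 0.648-fold. The part of these genes in the value of Txnip was not tested. The antisense gene Gm15441 overlaps exons of Txnip but was listed at 0 in all libraries except AngII 4 h IgG, at 0.220.

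Gpx1 was the 1 member counted as lower at 4 h, beside 7.77% of all genes, at 0.228-fold of Sham with IgG and 0.246-fold with anti-EZH2 (log2 -2.13 and -2.03). Its intervals were wide, 17.1 to 561 in Sham IgG and 7.04 to 346 in AngII 4 h IgG, and overlapped with either antibody. In the table of the whole series, Gpx1 was also lowest at 4 h, but at lower levels and with smaller differences from Sham, a log2 difference of -0.81 with IgG and -1.14 with anti-EZH2. Markers of red cells, which are rich in GPX1, were also lower at 4 h in sum. At 24 h, when they were above Sham, Gpx1 was at 0.595-fold and 0.669-fold of Sham in the library tables but above Sham in the table of the whole series (log2 0.24 and 0.27). The 6 erythroid markers summed to 919, 525 and 1204 with IgG and to 879, 535 and 1033 with anti-EZH2, with Hbb-bs the most abundant and Slc4a1 at 0 in 4 of the 6 libraries. Hba-a1, Hba-a2, Hbb-bs and Hbb-bt were lower at 4 h with both antibodies. Not all of the markers were, since Alas2 was at 2.01 in Sham and 1.13 at 4 h with IgG but at 1.64 and 3.55 with anti-EZH2. Prdx2, another abundant red cell protein, was instead at 29.1, 37.9 and 50.8 with IgG and 29.6, 47.4 and 32.9 with anti-EZH2, and the part of red cells in the value of Gpx1 was not tested.

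At AngII 24 h, Cat was the 1 member counted as higher than Sham, beside 5.79% of all genes, and 0 members were counted as lower, beside 8.41%. Cat was at 1.68-fold of Sham with IgG and 1.84-fold with anti-EZH2 (log2 0.75 and 0.88), after 1.22-fold and 1.23-fold at 4 h. The intervals of Sham and AngII 24 h overlapped narrowly with IgG (7.70 to 14.6 and 14.4 to 23.9) and were apart with anti-EZH2 (8.00 to 15.5 and 16.1 to 28.1). In the table of the whole series Cat was higher by a log2 difference of 0.78 and 0.96. The count of lower members was different there. Of the 21 members compared in it, 6 were counted as lower at 24 h, beside 11.2% of all genes. They were Nfe2l2, Prdx1, Prdx3, Rac1, Sod2 and Txn1, so the count of 0 lower members holds for the library tables. The erythroid markers given above, whose cells are rich in catalase, were also highest at 24 h with either antibody, and their part in the value of Cat was not tested. With AngII 4 h as the reference in place of Sham, which leaves out the Sham libraries but not the lower atrial signal of the 4 h libraries, Gpx1 was the 1 member counted as higher at 24 h (beside 4.85% of all genes) and 0 were lower (5.14%), so Cat was not past 1.5-fold of its 4 h level with both antibodies.

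**Figure D3:**
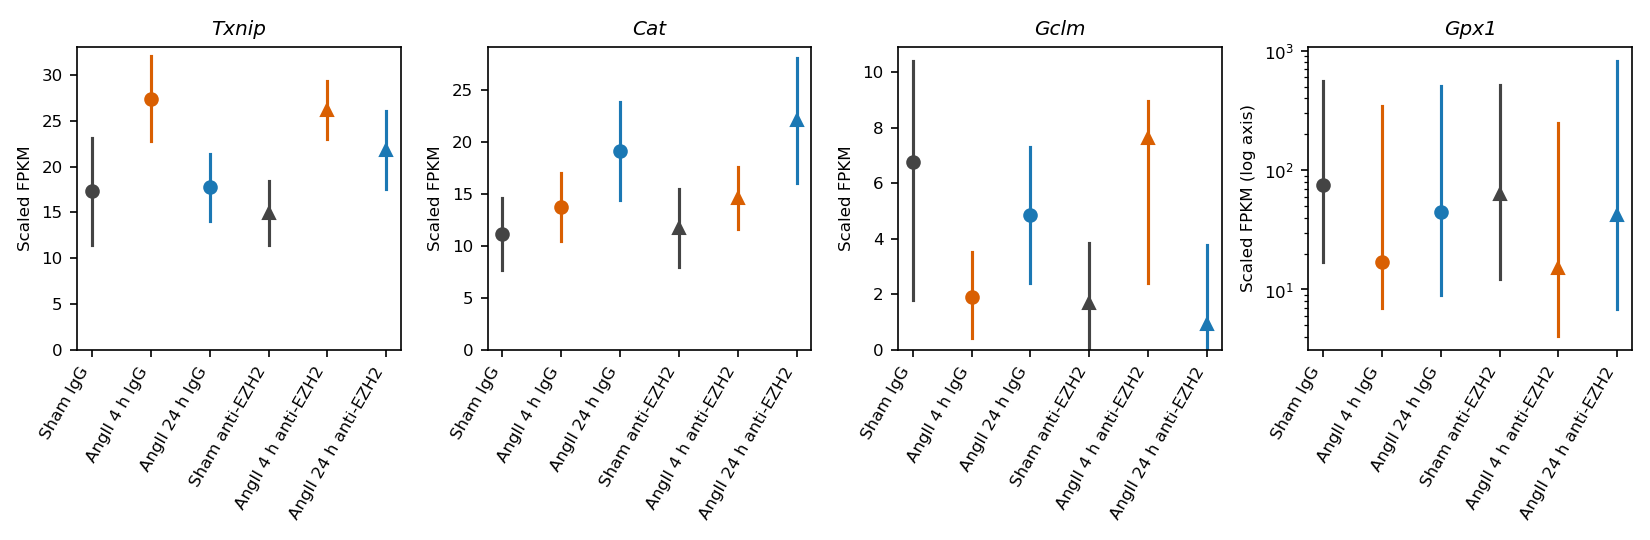
Scaled FPKM of Txnip, Cat, Gclm and Gpx1 (log axis for Gpx1 alone) in the 6 libraries, with the deposited interval of each value as a vertical line. Txnip is highest at AngII 4 h and Cat at AngII 24 h with either antibody, while Gclm alternates and the intervals of Gpx1 span more than 10-fold.

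The direction of the difference from Sham was the same with both antibodies for 19 of 25 members at 4 h (53.1% of all genes) and for 16 at 24 h (52.8%). Of any size, differences were upward at 4 h with both antibodies for 11 members (25% of all genes) and downward for 8 (28.1%). The 11 included 4 of the 6 peroxiredoxins (Prdx1, Prdx2, Prdx5 and Prdx6), Sod1, Sod2, Cat and Ucp2, all but Txnip past 1.5-fold in at most 1 antibody. Of the genes named, Ucp2 turned downward with IgG in the table of the whole series. Prdx6 was at 1.66-fold of Sham with IgG and 1.26-fold with anti-EZH2 at 4 h, and at 1.79-fold and 1.27-fold at 24 h. Among the 8 were both oxidase subunits that could be compared, Cyba at 0.587-fold and 0.742-fold and Rac1 at 0.902-fold and 0.497-fold, although Rac1 with IgG turned upward with FPKM as deposited (log2 0.10) and Cyba with anti-EZH2 with an equal sum of FPKM (log2 0.01).

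**Figure D4:**
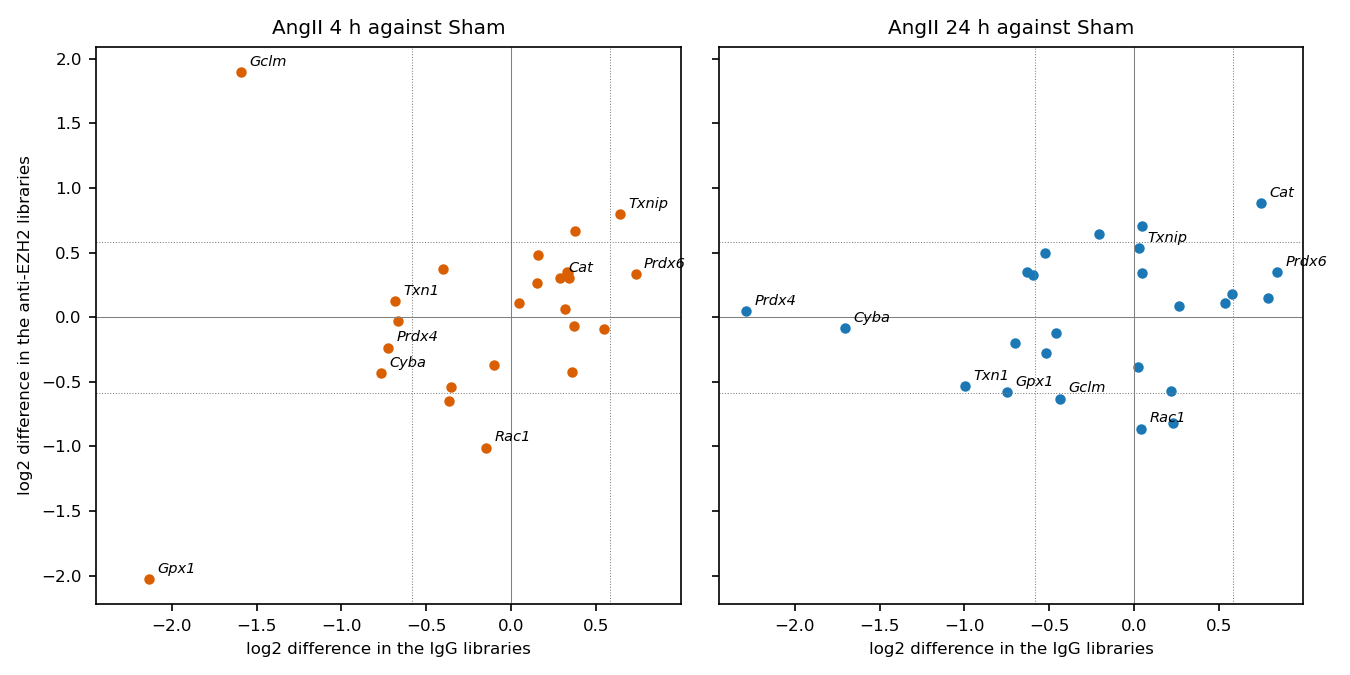
Log2 difference from Sham of the 25 members with IgG (horizontal) and with anti-EZH2 (vertical), at AngII 4 h (left) and AngII 24 h (right), with dotted lines at 1.5-fold. Txnip at 4 h and Cat at 24 h lie past both lines at the upper right, Gpx1 at 4 h at the lower left and Gclm at 4 h at the upper left.

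Further genes of the same pathways were read from a list of 84, of which 81 were found and 60 had a mean of at least 1 FPKM. The list was chosen with earlier results of these data known, so its shares below are a description and not a test. At 4 h, 9 of the 60 (15.0%) were counted as higher than Sham, beside 4.79% of all genes, and 1 as lower, beside 7.77%. The higher ones were Mt2, Msrb2, Msrb3, Blvra, Gss, Gsta3, Mgst1, Maob and Xdh, and the lower one was Txnrd2, the mitochondrial thioredoxin reductase. The minimum can have a part in the count, since Blvra, Gsta3 and Gss were below 1 FPKM in at least 1 Sham library and passed it through higher values elsewhere. Maob was also below 1 in Sham anti-EZH2, at 0.965 scaled FPKM, but at 1.87 in Sham IgG. Over all 78 further genes above 0 in any library, 11 (14.1%) were counted as higher, beside 3.12% of all such genes. At a mean of at least 5 FPKM these were 4 of 32 (12.5%, beside 4.10%). In the table of the whole series they were 5 of 43 (11.6%, beside 3.46%). The minimum of 5 FPKM, also a mean over all 6 libraries, has the same limit. Of the 4 genes, Mgst1 (2.58 with IgG and 4.18 with anti-EZH2) and Msrb2 (4.49 and 3.45) were below 5 scaled FPKM in both Sham libraries. By role, the 9 of the 60 held both tested oxidant sources (the amine oxidase Maob and xanthine dehydrogenase, Xdh), 3 of 18 glutathione genes and 1 of 15 NRF2 pathway genes. They also held 3 of 15 thioredoxin and repair genes, but 0 of 10 genes of NADPH supply. Neither Maob nor Xdh was among the genes counted in the table of the whole series or at a mean of at least 5 FPKM. With 1 FPKM added in place of 0.5, Xdh was not counted. At 24 h, 4 of the 60 (6.67%, beside 5.79% of all genes) were counted as higher (Gpx7, Gsta3, Mgst1 and Msrb2) and 2 (3.33%, beside 8.41%) as lower (Pgls and Txnrd2).

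Mt2, a metallothionein that binds zinc and scavenges oxidants, showed the largest mean log2 difference among the further genes counted at 4 h. It was at 5.87, 22.1 and 3.68 scaled FPKM with IgG and at 5.42, 24.2 and 3.77 with anti-EZH2, high in both AngII 4 h libraries and below Sham at 24 h. Msrb2, a mitochondrial methionine sulfoxide reductase, was at 4.49, 16.2 and 26.3 with IgG and at 3.45, 12.6 and 6.44 with anti-EZH2. Mgst1, a membrane-bound glutathione transferase, was at 2.58, 5.15 and 14.5 with IgG and at 4.18, 9.26 and 9.55 with anti-EZH2, above Sham at both times, while with anti-EZH2 its values at 4 and 24 h lay close together.

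The remaining named genes were low or depended on the table. Blvra, which reduces biliverdin, was at 0, 1.36 and 0 with IgG and at 1.78, 3.53 and 0 with anti-EZH2, and Gsta3, a glutathione transferase, reached 1.98 at most. Gpx7, a peroxidase of the endoplasmic reticulum, was at 0.636, 0.735 and 1.80 with IgG and at 0.196, 0.944 and 4.10 with anti-EZH2. Pgls, of the pentose phosphate pathway that supplies NADPH, was at 6.38, 5.55 and 3.46 and at 7.44, 4.74 and 3.86, but in the table of the whole series at 1.90, 1.72 and 1.95 and at 2.75, 1.51 and 2.04, where it was not past 1.5-fold at 24 h. Txnrd2 was at 39.1, 9.89 and 5.56 with IgG and at 26.1, 9.75 and 10.3 with anti-EZH2, highest in Sham. In the table of the whole series it was instead at 2.47, 2.73 and 3.86 and at 1.21, 1.82 and 7.21, lowest in Sham, so the lower AngII values were not found there.

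Markers of other cell types also differed between the groups. The 5 endothelial markers summed to 39.4, 24.1 and 19.2 scaled FPKM with IgG and to 37.8, 27.6 and 33.4 with anti-EZH2, with Egfl7 the most abundant. The 7 fibroblast markers, led by Dcn, summed to 77.1, 43.0 and 52.9 and to 81.2, 50.6 and 68.5, so that both sums were highest in Sham with either antibody. Single markers differed from their sums, as Dcn stayed between 23.1 and 26.9 and Egfl7 was highest in AngII 24 h anti-EZH2, at 20.3. The 7 adipocyte markers, led by Fabp4, summed to between 49.9 and 72.1, with Plin1, Lep and Ucp1 at 0 throughout. The 5 neutrophil markers reached 3.13 at most, in AngII 4 h anti-EZH2, and were all at 0 in AngII 24 h anti-EZH2. None of the 5 genes listed for the cardiac response to AngII was counted as higher at either time, Nppa, which is also among the atrial markers, was counted as lower at 24 h, and the sum of the 5 was 164, 152 and 139 with IgG and 147, 160 and 134 with anti-EZH2, with Ankrd1 the most abundant. The part of these markers in the differences of the redox genes was not tested.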

How the data were processed

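RIP-seq of 6 libraries was analysed from the deposited FPKM. The authors prepared stranded libraries and mapped reads with TopHat2 to mm10. The program and strand setting behind the FPKM are not given in the sources used here, and the deposited tables carry column names known from Cufflinks, among them the bounds of an interval that held 185 of the 192 member values. Whether reads of overlapping genes on opposite strands were told apart is therefore not known. The member values outside the interval were those of Sod1 in all libraries but Sham IgG and of Prdx5 in both AngII 4 h libraries. All of them lay above it. Groups follow the sample labels, and members and gene lists were chosen with earlier results of these data known.

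For a gene with several rows (60 genes) the widest locus was used, and 787 values below 0.001 FPKM were set to 0. FPKM were divided by the median ratio to the geometric mean over 4843 genes above 1 FPKM in all libraries, giving factors of 0.785 to 1.21. Genes with a mean of at least 1 FPKM were tested by limma 3.58.1 (R 4.3.3) on log2(scaled FPKM + 0.5), two-sided, with a trend and Benjamini-Hochberg adjustment, and differences are on that scale, which understates the change of low genes. Group and AngII differences have no replicates and no test. Named were all members and, of the further genes, the 3 with the largest difference past each count. Fragments were estimated from the smallest steps of FPKM, where 77.2 to 81.8% of low values came out as whole fragments within 0.1, and counts of fragments are approximate because a gene's effective length is not known. The simulated test had a slope of 1.02 of estimate on truth. Scaling, pseudocount, minimum, table, fold, block and left-out pairs were varied.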

Additional observations from a re-analysis of the deposited data

Results flagged for a closer look

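Gclm moved in opposite directions with the antibodies between Sham and AngII 4 h. Its log2 difference was -1.59 with IgG and 1.90 with anti-EZH2. In the table of the whole series these were -0.51 and 1.91, so the difference with IgG was not past 1.5-fold there. With 1 library of each kind the difference between these values was not tested. At this time 8.49% of all 8636 genes moved past 1.5-fold in opposite directions with the antibodies, and Gclm was the 1 such member of 25.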

How the results depend on the processing

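With anti-EZH2 against IgG, 0 members were called under each of the 13 alternatives run, including leaving out each pair in turn and the fit with no replicate block, where limma called 0 to 5 genes of any kind. The block was the group of mice, since the labels give no replicate numbers. The counts against Sham depended more on the choices, and the cause was not tested. At AngII 4 h, 4 members were higher with FPKM as deposited (Prdx2, Prdx6, Sod2 and Txnip, beside 11.1% of all genes), 2 with an equal sum of FPKM (Prdx6 and Txnip, 10.3%), and 0 in the series table, past 2-fold or with intervals apart in both antibodies. With intervals apart, 0 were also lower at 4 h and 0 higher at 24 h. At 24 h, 3 were higher with an equal sum of FPKM (Cat, Prdx2 and Prdx6, 10.3%) and 0 past 2-fold, and lower were 1 at a pseudocount of 0.1 (Txn1, 10.1%) and 6 of 21 in the series table (Nfe2l2, Prdx1, Prdx3, Rac1, Sod2 and Txn1, 11.2%). With IgG alone, 2 members were higher (19.5%) and 6 lower (22.2%) at 4 h, and 3 (21.7%) and 7 (22.4%) at 24 h. With anti-EZH2 alone these were 3 (18.5%) and 3 (23.7%) at 4 h, and 3 (21.8%) and 3 (27.8%) at 24 h. Txnrd2 reversed in the series table, to a mean log2 difference from Sham of 0.28 at 4 h and 1.36 at 24 h. The mean difference of members turned sign for 4, 4 and 1 of them at 4 h and for 1, 7 and 5 at 24 h with FPKM as deposited, an equal sum and the series table. Gpx1 was among the 5, while no member turned at the time at which it was counted against Sham. Between antibodies within a group, members past 2-fold above IgG at 24 h were 0 as deposited and in the series table, 1 at a pseudocount of 1 and 3 with an equal sum. Those past 2-fold below IgG were 6 in Sham (equal sum) and 0 (series table), 1 at 4 h (as deposited, pseudocount 0.1, series table) and 3 (equal sum), and 6 (as deposited) and 2 (pseudocount 0.1) at 24 h. In all 3 groups, 14 (as deposited), 3 (equal sum) and 3 (series table) lay below IgG, and 0 above it under these settings. As deposited, the median log2 difference of all genes was 0.16 (IgG) and 0.29 (anti-EZH2) at 4 h and 0.18 and -0.07 at 24 h, and between antibodies -0.19 in Sham, -0.06 at 4 h and -0.52 at 24 h. Of the further redox genes, those higher at 4 h were 15 as deposited and with an equal sum, 5 in the series table and 4 at a mean of at least 5 FPKM, and those lower 0 in the series table and 3 with no minimum. At 24 h, 7 were higher as deposited, 8 with an equal sum and 2 at a mean of at least 5 FPKM, and 1, 0 and 4 lower as deposited, with an equal sum and in the series table. These counts for the further genes and the 2 alternatives of summing all rows of a gene and of taking AngII 4 h as reference were added after seeing the data. Each group is 1 library per antibody of 2 mice, with Sham libraries that hold atrial transcripts, so treatment, mice and atrial content cannot be told apart.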
